A study of Homo sapiens with 12 samples.

Results

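Genes of glycolysis and genes known as targets of the hypoxia-inducible factors were followed in MM.1S cells, a long-used line derived from human multiple myeloma and known to respond to glucocorticoids. A list of 46 gene symbols was matched to the gene annotation of the array platform. Of these, 24 had a row among the 14884 named genes tested, and the other 22 (HIF1A, EGLN2, CA9, P4HA1, P4HA2, FAM162A, SLC2A1, SLC2A3, PFKFB3, PFKFB4, PFKL, PFKM, PFKP, ALDOA, ALDOC, ENO1, ENO2, PKM, SLC16A1, SLC16A3, PDK1 and PDK3) are not analysed here. The cells were treated for 24 h, and 12 Affymetrix arrays were analysed, with 3 in each of 4 groups. FPD cells were given 1 nM filanesib, which blocks the mitotic motor known as kinesin spindle protein, with 500 nM pomalidomide and 10 nM dexamethasone. PD cells were given 500 nM pomalidomide, a cereblon ligand that leads to the breakdown of IKZF1 and IKZF3, with 10 nM dexamethasone, a synthetic glucocorticoid. For F cells the title and the protocol give only the letter F, whereas the treatment label gives 1 nM filanesib and 10 nM dexamethasone. Control cells received vehicle and are called untreated in 1 label. All groups are 1 cell line, which carries no added transgene in the labels. Every value below is a log2 RMA expression value, so a difference of 1 is a 2-fold difference. Nothing in the labels places the 3 arrays of a group in separate cultures, and the p-values therefore reflect array-to-array spread that could be technical.

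Hypoxia-inducible factors are pairs of an oxygen-labile alpha subunit, encoded by HIF1A or EPAS1, and the stable partner ARNT. When oxygen is present, prolyl hydroxylases of the EGLN family mark the alpha subunit for destruction, so the factors are regulated largely at the protein level, which arrays do not measure. The factors bind short DNA elements with a core of ACGTG or GCGTG and raise genes for blood vessel growth, glucose uptake, glycolysis and lactate formation. Myeloma cells, like many cancer cells, turn much of their glucose into lactate, and pomalidomide belongs to a drug class known for acting against blood vessel growth.

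Array medians ranged over 4.23 to 4.27, and within groups the arrays correlated at r = 0.988 to 0.992. Of 8 plasma cell markers 6 were measured, and SDC1 averaged 10.21 in FPD, 10.16 in PD, 10.16 in F and 10.19 in Control cells. IRF4, a transcription factor of plasma cells, and SLAMF7, a surface protein, were the 2 that fell in PD against Control, by 1.23 and 0.48 on the log2 scale (limma adjusted p = 2.20e-07 and 0.000877). Of 12 markers of T, myeloid, stromal and epithelial cells 8 were measured, and 0 were called in PD or FPD against Control, with 1 at an unadjusted p under 0.05 in each. LYZ, CD14 and CD163 averaged below the array medians in every group and CD2, MPO and EPCAM near them. CD8A averaged 5.86 in FPD, 5.95 in PD, 5.83 in F and 5.91 in Control cells, and the epithelial gene KRT18 averaged 7.48 in FPD, 7.86 in PD, 7.52 in F and 7.51 in Control cells. The PD arrays of KRT18 read 7.63, 7.65 and 8.30, so PD replicate 3 raised the PD mean. The part of these markers in the results was not tested. FKBP5, a gene that glucocorticoids induce, averaged 7.25 ± 0.04 in FPD and 7.06 ± 0.12 in PD cells, against 5.74 ± 0.30 in F and 5.57 ± 0.03 in Control cells (SD, n = 3 each). The F minus Control difference of FKBP5 was 0.18 on the log2 scale and did not pass the test (limma, Benjamini-Hochberg adjusted p = 0.902).

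At an adjusted p under 0.05, EPAS1, VEGFA, ANKRD37, HK2 and LDHA separated FPD and PD cells from F and Control cells. WSB1 did so except in PD against F, where it was not called. EPAS1, the alpha subunit of hypoxia-inducible factor 2, and WSB1, a ubiquitin ligase subunit, rose in PD and FPD cells, while the targets VEGFA and ANKRD37 and the enzyme genes HK2 and LDHA fell. In PD against Control, 2 of the 24 members were higher and 4 were lower at an adjusted p under 0.05, where 15.5% of all 14884 genes were called (6.84% higher and 8.63% lower). A further quantile normalization turned that balance, with 1157 higher and 1081 lower genes in place of 1018 and 1284. In FPD against Control the same 6 genes were called in the same direction and EGLN1 joined them, giving 3 higher and 4 lower members against a background of 13.1% (7.26% higher and 5.89% lower). Both comparisons use the same Control arrays. In PD against Control 13 members and 3947 of all genes had an unadjusted p under 0.05. In FPD against Control these were 14 members and 3641 genes. With 3 arrays per group, PD and Control arrays did not overlap for 13 members and 4314 of all 14884 genes. FPD and Control arrays did not overlap for 14 members and 4449 genes. The median log2 change of the 24 members was -0.046 in PD cells, where that of all genes was -0.0027, and -0.16 in FPD cells, where that of all genes was -0.016. In PD cells 12 members were negative, with 3 of 4 upper glycolytic, 2 of 3 lower glycolytic and 2 of 2 lactate genes. In FPD cells 15 were negative, with 3 of 4, 3 of 3 and 2 of 2 of these. Of 4 factor subunits and oxygen sensors, 4 were positive in PD and 3 in FPD cells. Of these, EPAS1 alone was called in PD cells and EPAS1 and EGLN1 in FPD cells, while EGLN3 lay below the array medians. Of all 14884 genes 7537 and 7982 were negative. RNA came from whole cultures, so fewer cells that express a gene and less of its RNA per cell cannot be told apart.

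F cells differed little from Control cells, and FPD cells little from PD cells. In F against Control 0 of 24 members were called by limma, and 0.00672% of all genes, a single gene, were called. An unadjusted p under 0.05 was reached by 2 members (EPAS1 and WSB1) and by 895 of all 14884 genes. In FPD against PD 0 of 24 members were called, and 0.0336% of all genes were called. Here 3 members (WSB1, ADM and PGAM1) and 1283 of all genes had an unadjusted p under 0.05. The FPD and PD arrays did not overlap for 3 members and 2150 of all genes. The median log2 change of the members was -0.023 for F minus Control and 0.038 for FPD minus PD. The departure from additivity, which is FPD minus PD less the difference of F and Control, called 0 members and 0% of all genes. For it 2 members (EPAS1 and VEGFA) and 833 of all genes were at an unadjusted p under 0.05. If F cells had dexamethasone, as their treatment label gives, the F minus Control part of this departure would also hold that drug.

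**Figure D1:**
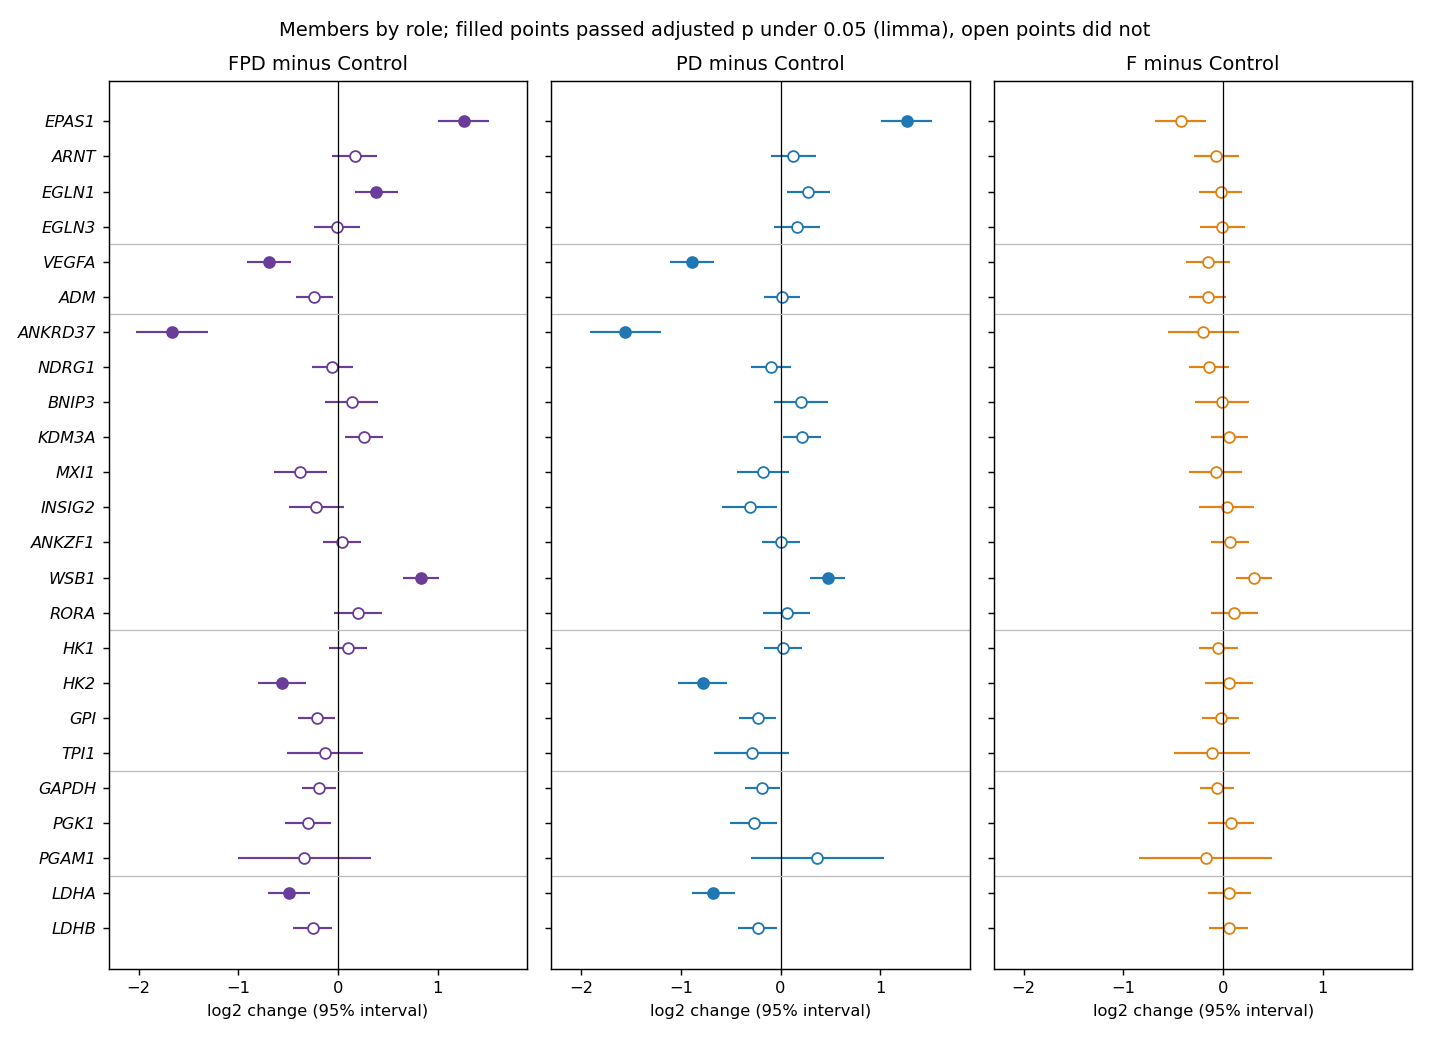
Log2 change of each of the 24 members from Control (points) with its 95% interval from limma (lines), for FPD, PD and F cells from left to right, with n = 3 arrays per group. Members are grouped by role, grey lines separate the roles, and filled points mark an adjusted p under 0.05: 7 members in FPD, 6 in PD and 0 in F cells.

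The stretch before the start of a gene is shown for the 3 called members that fell furthest in PD cells and have an entry in the RefSeq promoter table (assembly GRCh38.p14), and for EPAS1, which rose furthest. Each covers 250 bases before the most upstream start, on the plus strand and read 5′ to 3′. Capitals mark the core motif ACGTG or GCGTG on either strand, so that CACGT and CACGC are also marked where they occur. ANKRD37 spans chr4:185396591-185396840, HK2 chr2:74833877-74834126, LDHA chr11:18394313-18394562 and EPAS1 chr2:46297157-46297406.
ANKRD37: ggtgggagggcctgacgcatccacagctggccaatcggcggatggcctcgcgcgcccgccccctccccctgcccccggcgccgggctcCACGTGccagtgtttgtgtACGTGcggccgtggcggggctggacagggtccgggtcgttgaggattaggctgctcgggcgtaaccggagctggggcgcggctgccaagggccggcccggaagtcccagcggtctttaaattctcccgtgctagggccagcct
HK2: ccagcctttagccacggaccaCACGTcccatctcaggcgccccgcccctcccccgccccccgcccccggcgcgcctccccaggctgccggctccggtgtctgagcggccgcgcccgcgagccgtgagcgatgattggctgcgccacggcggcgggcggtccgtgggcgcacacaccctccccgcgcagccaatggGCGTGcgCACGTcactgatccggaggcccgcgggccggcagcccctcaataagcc
LDHA: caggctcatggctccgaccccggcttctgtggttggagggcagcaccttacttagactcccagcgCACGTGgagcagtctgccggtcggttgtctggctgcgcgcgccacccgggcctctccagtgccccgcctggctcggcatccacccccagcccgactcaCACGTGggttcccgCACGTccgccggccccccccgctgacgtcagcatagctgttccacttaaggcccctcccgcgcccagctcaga
EPAS1: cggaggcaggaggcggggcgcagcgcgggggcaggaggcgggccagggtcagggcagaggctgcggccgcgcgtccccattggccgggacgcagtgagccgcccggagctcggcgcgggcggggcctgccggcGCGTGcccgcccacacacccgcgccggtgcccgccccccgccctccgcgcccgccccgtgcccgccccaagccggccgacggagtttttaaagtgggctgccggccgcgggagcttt
The ANKRD37 stretch holds 2 copies of ACGTG, of which 1 lies in CACGTG, a palindrome that reads as ACGTG on both strands and was counted once. The HK2 stretch holds 2 copies of ACGTG and 1 of GCGTG, the LDHA stretch 3 copies of ACGTG, of which 2 lie in CACGTG, and the EPAS1 stretch 1 copy of GCGTG. Of the 24 members, 21 matched an entry of the table. ACGTG was present in 10 of these 21 (47.6%), against 5090 of 27305 genes in the table (18.6%). GCGTG was present in 7 of 21 (33.3%), against 8715 genes (31.9%), and CACGTG in 5 of 21 (23.8%), against 1765 genes (6.46%). ACGTG was not confined to members that fell. WSB1, which rose, held 2 copies of ACGTG and 1 CACGTG, the same counts as ANKRD37, and EGLN1 held 1 copy of ACGTG. Among members not called in PD against Control, PGK1 held 2 copies, and GAPDH, BNIP3, GPI and INSIG2 held 1 each. A link between the motifs and the changes was not tested. Many members are known targets of factors that bind these letters, so the shares only describe the list.

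Among the factor subunits and oxygen sensors, 4 of 6 listed genes were measured and HIF1A was not. EPAS1 (transcript cluster 16879721) read 7.77, 7.70 and 7.68 in the 3 FPD arrays, 7.75, 7.58 and 7.83 in the PD arrays, 6.19, 5.80 and 6.11 in the F arrays, and 6.29, 6.41 and 6.67 in the Control arrays. All 6 arrays with pomalidomide and dexamethasone lay above all 6 others. The log2 change of EPAS1 was 1.26 ± 0.12 (SE) in PD against Control, or 2.40-fold (limma, Benjamini-Hochberg adjusted p = 3.55e-06). It was 1.26 in FPD against Control (adjusted p = 3.81e-06) and 1.68, or 3.21-fold, in FPD against F (adjusted p = 1.89e-07). FPD and PD arrays overlapped, and the FPD minus PD difference had a 95% interval from -0.26 to 0.25.

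The F arrays of EPAS1 all lay below the Control arrays, and 1488 of all 14884 genes had no overlap between these groups in either direction. This F minus Control difference of -0.42 (95% interval -0.68 to -0.17) did not pass the test over all genes (limma, adjusted p = 0.606). The departure of EPAS1 from additivity was 0.42 with an adjusted p of 0.888.

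EGLN1, the main oxygen-sensing prolyl hydroxylase and itself a target of the factors, read 7.68, 7.72 and 7.82 in FPD arrays, 7.67, 7.54 and 7.69 in PD arrays, 7.38, 7.29 and 7.32 in F arrays, and 7.41, 7.51 and 7.14 in Control arrays. FPD and PD arrays lay above the F and Control arrays without overlap, by small margins. EGLN1 rose by a log2 of 0.39 in FPD against Control (1.31-fold, limma adjusted p = 0.0179) and of 0.41 in FPD against F (adjusted p = 0.0117). In PD against Control the difference of 0.28 did not pass (adjusted p = 0.0817), but it did after quantile normalization (0.0323), among the upper genes by mean (0.0418) and without Control replicate 2 (0.0446). The FPD against Control call of EGLN1 was lost without Control replicate 3 (adjusted p = 0.0872) or FPD replicate 3 (0.0797), and that against F without F replicate 2 (0.0502) or FPD replicate 3 (0.0563).

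ARNT, the partner subunit, averaged 9.16 ± 0.10 in FPD, 9.12 ± 0.19 in PD, 8.92 ± 0.06 in F and 8.99 ± 0.11 in Control cells and was not called in any comparison. ARNT had the lowest PD minus Control log2 change of its group, at 0.13 (adjusted p = 0.507). EGLN3, an oxygen sensor that the factors induce strongly, had values between 3.67 and 4.17 in all 12 arrays, below the array medians, so its level was not separable from background.

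Of the secreted targets, VEGFA and ADM were measured. VEGFA (transcript cluster 17009093), the main growth factor for blood vessels, read 5.90, 5.69 and 5.89 in FPD arrays, 5.54, 5.65 and 5.69 in PD arrays, 6.49, 6.37 and 6.23 in F arrays, and 6.39, 6.67 and 6.49 in Control arrays. Every FPD and PD array lay below every F and Control array, and the F and Control arrays overlapped. VEGFA fell by 0.89 on the log2 scale in PD against Control (SE 0.10, 1.85-fold, limma adjusted p = 2.36e-05), by 0.69 in FPD against Control (adjusted p = 0.000274) and by 0.54 in FPD against F (adjusted p = 0.00201). The PD arrays lay below the FPD arrays, with the nearest pair equal to 2 decimals. The FPD minus PD difference of 0.20 (95% interval -0.02 to 0.42) did not pass the test (adjusted p = 0.618). The departure of VEGFA from additivity was 0.35 (adjusted p = 0.888).

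ADM, which encodes the vasodilator peptide adrenomedullin, read 8.63, 8.61 and 8.58 in FPD arrays, 8.85, 8.92 and 8.81 in PD arrays, 8.61, 8.67 and 8.79 in F arrays, and 8.88, 8.91 and 8.75 in Control arrays. The FPD arrays lay below both the PD and the Control arrays, while PD and Control arrays overlapped at a difference of 0.015. ADM passed no test: the FPD minus PD difference was -0.25 (95% interval -0.44 to -0.07, limma adjusted p = 0.422), and FPD minus Control was -0.24 (adjusted p = 0.0890).

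The intracellular targets held both the lowest member and 1 of those that rose, and 9 of 12 listed were measured. ANKRD37 (transcript cluster 16972950), which encodes a small ankyrin-repeat protein, read 4.64, 4.68 and 4.71 in FPD arrays, 4.79, 4.88 and 4.69 in PD arrays, 5.92, 6.71 and 5.79 in F arrays, and 6.26, 6.48 and 6.28 in Control arrays. The 6 FPD and PD arrays clustered tightly, all below the other 6, and F replicate 2 stood above both other F arrays. ANKRD37 had a log2 change of -1.56 ± 0.17 (SE) in PD against Control, or 2.94-fold (limma adjusted p = 1.26e-05). The change was -1.66, or 3.16-fold, in FPD against Control (adjusted p = 7.57e-06) and -1.47, or 2.76-fold, in FPD against F (adjusted p = 2.31e-05). Its PD and FPD values lay close to the array medians, could not be separated from background and are in a range where RMA compresses differences, so the sizes of these folds are uncertain and may be understated.

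WSB1 (transcript cluster 16832319), a subunit of a ubiquitin ligase known to act on the von Hippel-Lindau protein, read 8.14, 8.15 and 8.11 in FPD arrays, 7.82, 7.81 and 7.69 in PD arrays, 7.59, 7.66 and 7.58 in F arrays, and 7.21, 7.36 and 7.33 in Control arrays. The groups did not overlap and stood in the order FPD, PD, F and Control from high to low. WSB1 rose by a log2 of 0.47 in PD against Control (1.39-fold, limma adjusted p = 0.00102), 0.83 in FPD against Control (1.78-fold, adjusted p = 6.87e-06) and 0.53 in FPD against F (1.44-fold, adjusted p = 0.000461). The 3 steps between neighbours in the order did not pass the test over all genes. FPD minus PD was 0.36 (95% interval 0.18 to 0.54, limma adjusted p = 0.153), PD minus F was 0.16 (interval -0.02 to 0.34, adjusted p = 0.230), and F minus Control was 0.31 (interval 0.13 to 0.49, adjusted p = 0.553).

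The other 7 intracellular targets were not called in any comparison in the fit of all 14884 genes, and their PD minus Control log2 changes ran from -0.31 to 0.22. KDM3A and MXI1 were called in FPD against Control under some of the alternatives given below. INSIG2, a brake on cholesterol synthesis, had the lowest of these, at -0.31 (limma adjusted p = 0.137), and KDM3A, a histone demethylase, the highest, at 0.22 (adjusted p = 0.127). For both genes the PD arrays did not overlap the Control arrays, as was so for 4314 of all 14884 genes. BNIP3, a mitophagy receptor, lay between 3.42 and 4.03 in all arrays, below the array medians, and RefSeq lists 46 pseudogenes under its symbol, which may share signal. NDRG1, a stress-responsive gene, averaged 6.28 in FPD, 6.24 in PD, 6.20 in F and 6.33 in Control cells. MXI1, an antagonist of MYC, had 2 rows, with PD minus Control changes of -0.18 and -0.044 and FPD minus Control changes of -0.38 and -0.11. The first row, which stood for the gene, had an adjusted p of 0.0583 in FPD against Control (limma). ANKZF1 and the nuclear receptor gene RORA changed by 0.0045 and 0.062 in PD against Control.

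**Figure D2:**
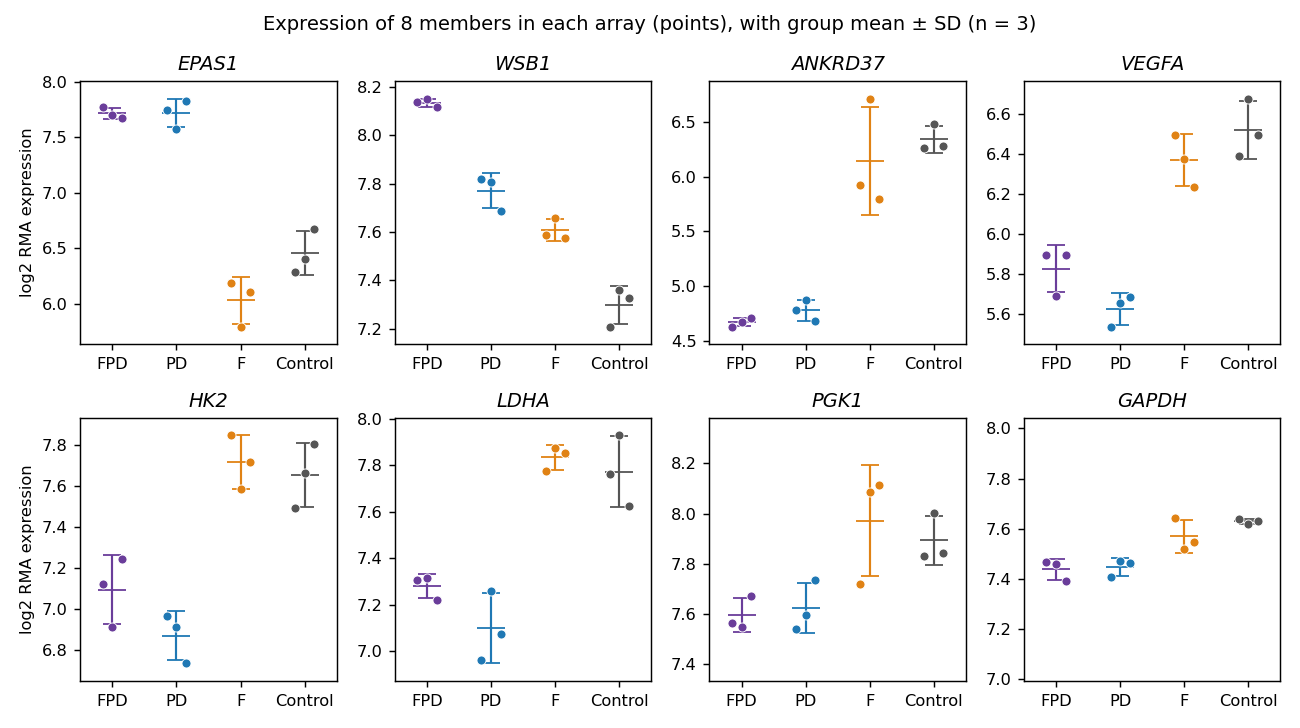
Log2 RMA expression of 8 members in every array (points), with group means and SD (bars, n = 3), for FPD, PD, F and Control cells from left to right in each panel. EPAS1 and WSB1 were higher, and ANKRD37, VEGFA, HK2 and LDHA lower, in all FPD and PD arrays than in all F and Control arrays, while PGK1 and GAPDH differed by less.

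Glucose transporters and the PFKFB enzymes, which set the level of a potent activator of glycolysis, had 4 listed members and no named row. Of the upper glycolytic enzymes, 4 of 9 were measured, and HK2 alone among them was called. HK2 (transcript cluster 16881838), the inducible hexokinase that commits glucose to the cell's metabolism, read 7.12, 6.91 and 7.25 in FPD arrays, 6.97, 6.91 and 6.74 in PD arrays, 7.85, 7.59 and 7.72 in F arrays, and 7.49, 7.66 and 7.80 in Control arrays. All FPD and PD arrays lay below all F and Control arrays, and FPD overlapped PD as F overlapped Control. HK2 fell by 0.78 on the log2 scale in PD against Control (SE 0.11, 1.72-fold, limma adjusted p = 0.000178), by 0.56 in FPD against Control (1.47-fold, adjusted p = 0.00331) and by 0.62 in FPD against F (1.54-fold, adjusted p = 0.00134).

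HK1, the constitutive hexokinase, had the highest PD minus Control change of the upper enzymes, at 0.024 (95% interval -0.17 to 0.22, limma adjusted p = 0.917). GPI, which isomerises glucose 6-phosphate, averaged 11.11 in FPD, 11.10 in PD, 11.30 in F and 11.33 in Control cells, and its PD minus Control difference of -0.23 did not pass (adjusted p = 0.0999), but did with a variance trend (0.0311). TPI1, which interconverts the triose phosphates, spread widely within PD cells (5.99, 6.23 and 6.72) and differed from Control by -0.29 (adjusted p = 0.344).

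In lower glycolysis 3 of 6 genes were measured, and 0 were called against Control in PD or FPD cells, with 2 at an unadjusted p under 0.05 in each (GAPDH and PGK1). PGK1 (transcript cluster 17105047), which makes the first ATP of the pathway, read 7.56, 7.55 and 7.67 in FPD arrays, 7.54, 7.60 and 7.74 in PD arrays, 7.72, 8.09 and 8.11 in F arrays, and 7.83, 8.0 and 7.84 in Control arrays. The FPD and PD arrays lay below the Control arrays, whereas F replicate 1 lay below the highest PD array. The change of PGK1 was -0.27 in PD (limma adjusted p = 0.121) and -0.30 in FPD cells against Control (adjusted p = 0.0917). It was called in FPD against F at -0.38 (1.30-fold, adjusted p = 0.0297), a call lost without F replicate 2 or 3 or FPD replicate 1 or 2 (adjusted p up to 0.131). Its call in PD against F was lost without F replicate 2 or 3, PD replicate 1 or 2 or FPD replicate 1 (adjusted p up to 0.160), and also after quantile normalization (0.0998), with all rows tested (0.0902) and on the compared arrays alone (0.0818).

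GAPDH (transcript cluster 16747338), the dehydrogenase often used as a reference gene, read 7.47, 7.46 and 7.39 in FPD arrays, 7.41, 7.47 and 7.46 in PD arrays, 7.64, 7.52 and 7.55 in F arrays, and 7.64, 7.62 and 7.63 in Control arrays. The FPD and PD arrays all lay below the Control arrays. The change was -0.18 in PD against Control (95% interval -0.35 to -0.01, limma adjusted p = 0.162) and -0.19 in FPD against Control (adjusted p = 0.153). RefSeq lists 65 pseudogenes under the symbol of GAPDH, which may share signal on an array.

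PGAM1, a phosphoglycerate mutase, was set by a single array. It read 6.98, 6.59 and 7.09 in FPD arrays, 7.06, 7.05 and 8.66 in PD arrays, 6.98, 6.94 and 7.23 in F arrays, and 7.36, 6.80 and 7.51 in Control arrays. PD replicate 3 stood above every other array. Its PD minus Control change of 0.37 (limma adjusted p = 0.526), the highest of the lower enzymes, was -0.17 without that array. The 20 rows next to that of PGAM1 in the table carry genes of chromosome 12, whereas RefSeq places PGAM1 on chromosome 10 and lists 13 pseudogenes under its symbol, so the identity of this row is uncertain.

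Lactate formation was represented by both lactate dehydrogenase subunits, while the lactate transporters and pyruvate dehydrogenase kinases of the list had no named row. LDHA (transcript cluster 16722603), the subunit that favours turning pyruvate into lactate, read 7.31, 7.32 and 7.22 in FPD arrays, 6.96, 7.26 and 7.08 in PD arrays, 7.77, 7.88 and 7.85 in F arrays, and 7.76, 7.93 and 7.63 in Control arrays. All FPD and PD arrays lay below all F and Control arrays. LDHA fell by 0.67 on the log2 scale in PD against Control (SE 0.10, 1.6-fold, limma adjusted p = 0.000227). It fell by 0.49 in FPD against Control (1.41-fold, adjusted p = 0.00361) and by 0.55 in FPD against F (1.47-fold, adjusted p = 0.00134).

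LDHB, the subunit of oxidative tissues, read 8.41, 8.43 and 8.40 in FPD arrays, 8.46, 8.54 and 8.32 in PD arrays, 8.59, 8.74 and 8.84 in F arrays, and 8.64, 8.72 and 8.64 in Control arrays. All FPD and PD arrays again lay below all F and Control arrays, while FPD overlapped PD and F overlapped Control. LDHB was not called against Control in PD cells (-0.23, limma adjusted p = 0.114) or in FPD cells (-0.25, adjusted p = 0.0904), and was called in FPD against F (-0.31, adjusted p = 0.0347) and in PD against F (-0.29, adjusted p = 0.0422). The first of these calls was lost without F replicate 2 or 3 or any FPD replicate (adjusted p up to 0.145). The second was lost without Control replicate 1, F replicate 2 or 3, PD replicate 1 or 3 or any FPD replicate (adjusted p up to 0.170).

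PD was also set directly against F. Here 1 member was higher (EPAS1) and 6 were lower (VEGFA, ANKRD37, HK2, LDHA, PGK1 and LDHB), where 17.3% of all genes were called (7.43% higher and 9.91% lower). Over all genes this was 1106 higher and 1475 lower genes, and after a further quantile normalization of the arrays it was 1368 higher and 1186 lower. The log2 changes were 1.69 for EPAS1 (limma adjusted p = 1.93e-07), -1.36 for ANKRD37 (3.73e-05), -0.84 for HK2 (7.7e-05), -0.74 for VEGFA (0.000108), -0.74 for LDHA (9.14e-05) and -0.35 for PGK1 (0.0381).

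The comparisons of PD with Control and of FPD with F share no array. If F cells had no dexamethasone, both add pomalidomide and dexamethasone, without and with filanesib. If F cells had the dexamethasone of their treatment label, FPD against F adds pomalidomide alone and is not a repeat of PD against Control. In FPD against F, 3 members were higher (EPAS1, EGLN1 and WSB1) and 6 were lower (VEGFA, ANKRD37, HK2, LDHA, PGK1 and LDHB), where 14.1% of all genes were called (7.5% higher and 6.64% lower). All 6 members called in PD against Control were called with the same sign in FPD against F, as were 1428 of the 2302 genes called over the whole table (62.0%). Across the 24 members the log2 changes of both comparisons correlated at r = 0.939 (Spearman's rho = 0.868), and across all 14884 genes at r = 0.781 (rho = 0.592). These correlations are across genes, which are not independent replicates. VEGFA had a log2 change of -0.54 in FPD against F and -0.89 in PD against Control, and EPAS1 one of 1.68 in FPD against F and 1.26 in PD against Control. The difference between the comparisons is the departure from additivity, for which 0 members were called.

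**Figure D3:**
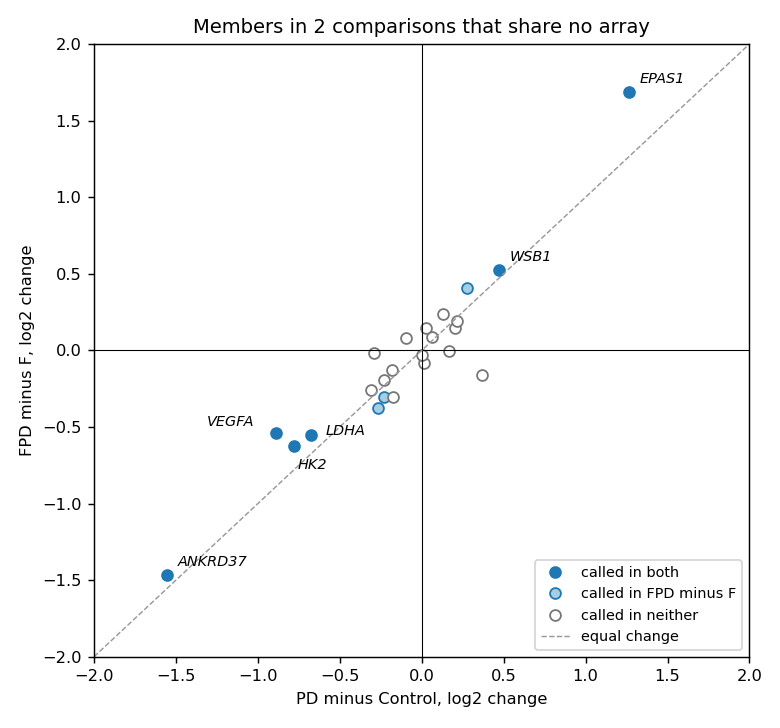
Log2 change of each of the 24 members in PD minus Control (horizontal axis) and in FPD minus F (vertical axis), which share no array. The 6 labelled members passed an adjusted p under 0.05 in both comparisons and kept their sign, and the dashed line marks equal change.

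Neighbouring pathways were described with 7 further lists of 109 genes, of which 66 were measured. In PD against Control 9 of the 66 were higher and 12 were lower, and in FPD against Control 9 were higher and 10 were lower, beside the background shares given above. Of 22 other target genes of the hypoxia factors, 4 were higher and 2 lower in PD against Control, with a median log2 change of 0.058. DDIT4, which restrains mTOR and is also a glucocorticoid-induced gene, rose to 10.45 in PD and 10.61 in FPD cells, against 5.97 in F and 5.99 in Control cells (PD minus Control 4.46, limma adjusted p = 8.74e-15). BNIP3L, a mitophagy receptor related to BNIP3, rose by a log2 of 0.80 in PD cells (adjusted p = 0.00128) and 0.63 in FPD cells (adjusted p = 0.00839), the second of which was lost without FPD replicate 2 (0.0516). The remaining higher genes were TMEM45A and VLDLR, a lipoprotein receptor whose call in PD cells was lost without any Control replicate or PD replicate 2 (adjusted p up to 0.156). In F and Control arrays TMEM45A (4.30 to 4.90) and VLDLR (4.62 to 4.95) lay close to the array medians and could not be separated from background. ERO1A, an oxidase of the endoplasmic reticulum, and HILPDA, a lipid droplet protein, fell by 0.55 (adjusted p = 0.00238) and 0.48 (adjusted p = 0.00379) in PD cells. Of 4 other regulators of the factors 0 were called against Control in PD or in FPD cells, with 1 at an unadjusted p under 0.05 in each. In FPD cells 1 was called higher without Control replicate 3. In PD cells 1 was called lower among the upper genes by mean and with a variance trend.

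The pentose phosphate pathway, which branches from glycolysis at glucose 6-phosphate and supplies ribose and NADPH, had 8 of 9 genes measured. In PD against Control 5 were lower and 1 higher, with a median log2 change of -0.44, and in FPD against Control 5 were lower and 0 higher, with a median of -0.37. RPIA, which makes ribose 5-phosphate, read 6.50, 6.19 and 6.55 in FPD arrays, 6.45, 6.26 and 6.02 in PD arrays, 7.38, 7.41 and 7.48 in F arrays, and 7.35, 7.56 and 7.23 in Control arrays. FPD and PD arrays lay below all others. RPIA fell by 1.14 on the log2 scale in PD against Control (2.20-fold, limma adjusted p = 1.35e-05) and by 0.97 in FPD against Control (adjusted p = 7.04e-05). PRPS1, which activates ribose phosphate for nucleotide synthesis, fell by 0.77 in PD cells (adjusted p = 0.000184) and 0.73 in FPD cells (adjusted p = 0.000340). The other lower genes in both comparisons were TKT, PGD and PRPS2, and the FPD call of PGD was lost with all rows tested and without any 1 of the Control or FPD arrays (adjusted p between 0.0547 and 0.111). PGLS, the lactonase of the oxidative branch, was the higher gene in PD cells, at 0.32 (adjusted p = 0.0366), and this call was lost without Control replicate 1 or 3 or any of the 3 PD replicates (adjusted p between 0.0511 and 0.140). In FPD cells PGLS was called only without Control replicate 2 among the sets with 1 array left out (adjusted p = 0.0338).

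Genes that carry pyruvate into the mitochondrial cycle had 9 of 13 members measured, of which 3 were lower and 1 higher in PD against Control (median -0.24), and 2 lower and 1 higher in FPD against Control (median -0.22). DLAT, a core subunit of pyruvate dehydrogenase, fell by 0.55 in PD cells (limma adjusted p = 0.000401), and CS, citrate synthase, by 0.40 (adjusted p = 0.0185), with PDHA1 the third lower gene. PDP1, the phosphatase that activates the dehydrogenase, rose by 0.30 in PD cells (adjusted p = 0.0284). Its values lay between 4.34 and 4.88 in all arrays, close to the array medians, and could not be separated from background. The call of CS was lost without Control replicate 2 or 3 or PD replicate 2 (adjusted p up to 0.0860), and that of PDP1 without Control replicate 1 or 2 or any PD replicate (adjusted p up to 0.127). The count of lower genes in PD cells was 1 without Control replicate 2 or PD replicate 2. In FPD against Control it was 0 without Control replicate 2 or FPD replicate 3, and 1 without Control replicate 1 or FPD replicate 1.

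Of 10 measured glycolytic and gluconeogenic isozymes beyond the members, 1 was lower in PD against Control (GALM, a galactose mutarotase, -0.36, limma adjusted p = 0.0102) and 0 were called in FPD against Control, with 1 at an unadjusted p under 0.05. Without PD replicate 3, 2 isozymes were lower in PD cells. Of 7 glycogen genes, PGM1, which links glucose 6-phosphate to glycogen, fell by 0.54 in PD cells (adjusted p = 0.00151) and by 0.53 in FPD cells (adjusted p = 0.00212). GYS1, the muscle-type glycogen synthase, was higher in FPD cells, at 0.49 (adjusted p = 0.0253), and this was lost without Control replicate 1 or 2 or FPD replicate 1 or 2 (adjusted p up to 0.0984).

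All 6 glucose-sensing genes were measured, and 3 were higher and 0 lower in both PD and FPD cells against Control, with medians of 0.25 and 0.29. TXNIP, an arrestin-like protein that restrains glucose uptake, read 10.50, 10.68 and 10.50 in FPD arrays, 10.57, 10.43 and 10.56 in PD arrays, 9.25, 9.43 and 9.40 in F arrays, and 9.13, 9.53 and 9.36 in Control arrays. FPD and PD arrays lay above all others. TXNIP rose by a log2 of 1.18 in PD against Control (2.26-fold, limma adjusted p = 2.47e-06) and of 1.22 in FPD against Control (2.33-fold, adjusted p = 1.84e-06). MLXIP, a transcription factor that responds to glucose phosphates, rose by 0.43 in PD cells (adjusted p = 0.0148) and by 0.71 in FPD cells (adjusted p = 0.000475). In PD cells MLXIP was no longer called without Control replicate 1 (0.0766) or PD replicate 1 (0.0618), and ARRDC4, a relative of TXNIP, was lost without any Control replicate or PD replicate 1 or 3, so the count of 3 fell to 1 without Control replicate 1 or PD replicate 1.

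**Figure D4:**
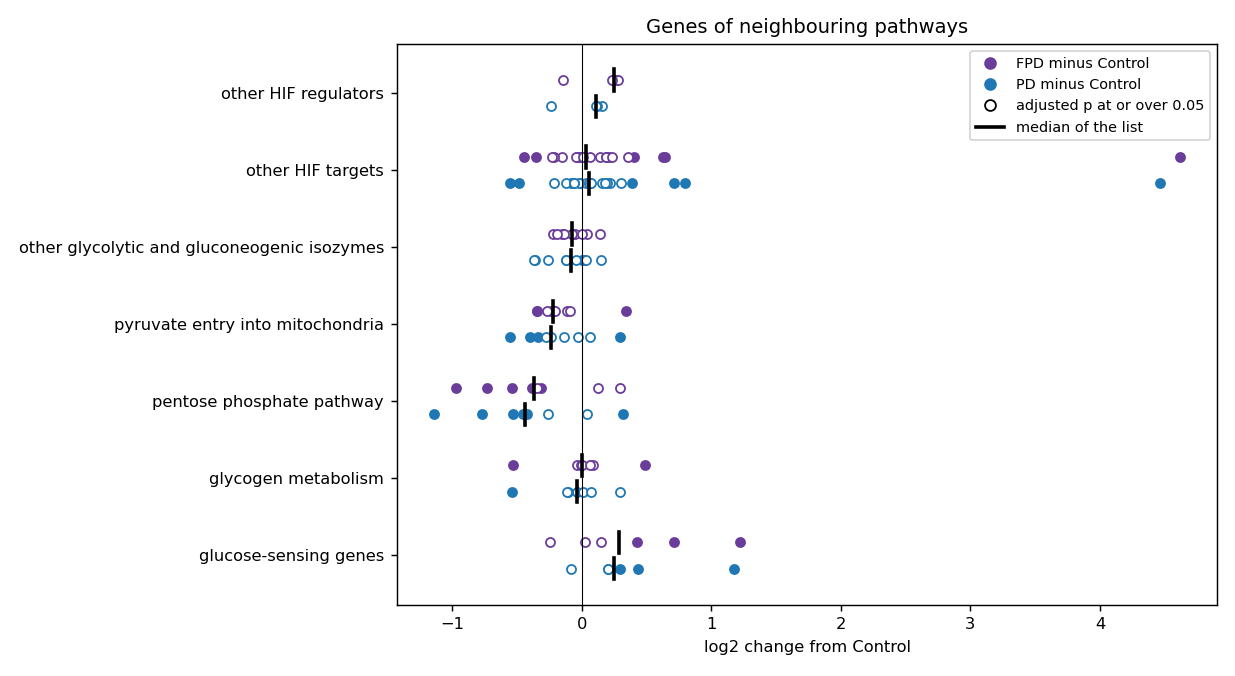
Log2 change from Control of the 66 measured genes of 7 neighbouring lists (points), with FPD minus Control above PD minus Control in each row. Filled points passed an adjusted p under 0.05 (limma), open points did not, and black bars mark the median of each list, which for the pentose phosphate genes was -0.37 in FPD and -0.44 in PD cells.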

How the data were processed

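Expression of MM.1S cells was measured on 12 Affymetrix arrays, grouped by the labels. The authors deposited log2 expression values. The submitters' processing notes name RMA and Affymetrix Expression Console as the tools. Versions, array background flags and the genome build are not given in the sources used here. RMA gives the probe intensities of the arrays a common distribution, so a change in total RNA per cell would not show. It also compresses low signals. The deposited row values kept small differences between arrays, with array medians from 4.23 to 4.27. Of 53617 rows, 16098 carried 1 gene symbol in the platform annotation, 0 several and 37519 none. For 779 genes with several rows, the row with the highest mean stood for the gene. All 14884 genes' identifiers were found in RefSeq GRCh38.p14, which was used for names and for the printed promoters.

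A model of the 4 group means was fitted per gene by lmFit and eBayes of limma 3.58.1 (R 4.3.3) on the 12 arrays, which leaves 8 residual degrees of freedom. All tests were two-sided. The Benjamini-Hochberg adjustment ran over the 14884 genes, and genes under an adjusted p of 0.05 were called. "Rose" and "fell" refer to this threshold. The script was tested on simulated data. The number of arrays limits the precision.

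The members, the neighbouring lists and the rules were chosen with earlier results of these data known. Members called with a log2 change of at least 0.5 in a pairwise comparison, and 7 members fixed by name (HIF1A and SLC2A1 among them, which are not analysed here), are given in full. Other members are given by range, with the extremes of each role group, and EGLN1, LDHB, ADM and PGAM1 in full after their values were seen. Of neighbouring lists, the 2 highest and 2 lowest called genes in PD against Control are named, with GYS1 and genes behind small counts added afterwards. Alternatives were quantile normalization, the mean of a gene's rows, the upper 7442 genes by mean, all rows, a variance trend, the compared arrays alone, the replicate number as a block, and leaving out each array. Replicate numbers were not used as pairs in the fit reported here. Same-numbered arrays deviated together at r over 0.1 in 5 of 18 pairs, which leaves a pairing undecided.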

Additional observations from a re-analysis of the deposited data

How the results depend on the processing

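EPAS1, VEGFA, ANKRD37, HK2 and LDHA kept their direction and their call in PD and FPD against Control, in FPD against F and in PD against F under all 19 alternatives run for each, and WSB1 did so in the first 3 of these comparisons. For ANKRD37 the filter on means is no check, since it passed only through its F and Control arrays. With the replicate number as a block, PD against Control again called 2 members higher and 4 lower, and LDHB in PD against F had an adjusted p of 0.0524. Of the 12 arrays, 1 correlated best with its own number in every other group. With 3 arrays per group this cannot decide whether same-numbered arrays share more than a number. The causes of the changes below were not tested beyond the smaller number of genes or arrays.

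Among the upper 7442 genes by mean, 21 members remained, which removes low members by their level. The median log2 change of the members was then -0.21 in FPD against Control, -0.18 in PD against Control, -0.13 in FPD against F and -0.10 in PD against F, and 8 members were lower in FPD against Control. ANKRD37 counts in these medians and in the 8, although it passed the filter only through its F and Control arrays. PD against F called 2 members higher under this filter, after quantile normalization and with a variance trend. Quantile normalization gave medians of -0.011 in FPD against PD and -0.022 in PD against F, and the mean of a gene's rows gave -0.011 in PD against F. Leaving out 1 array at a time gave member medians from -0.16 to -0.12 in FPD against Control, -0.16 to -0.021 in PD against Control, -0.087 to -0.0069 in FPD against F, -0.058 to -0.0032 in PD against F and 0.013 to 0.081 for the departure from additivity, and 1 to 2 members higher in PD against F (2 without Control replicate 2 or 3).

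Single members were recomputed in PD and FPD against Control, and some of them in the other comparisons. Among these results, signs turned for the uncalled differences that follow. EGLN3 in FPD against Control was 0.0028 after quantile normalization and ran from -0.069 to 0.034 without single arrays. Without single arrays, PD minus Control ran from -0.034 to 0.048 for ADM, -0.036 to 0.080 for ANKZF1, -0.0061 to 0.065 for HK1, -0.17 to 0.64 for PGAM1 and -0.036 to 0.14 for RORA. F minus Control ran from -0.017 to 0.14 for HK2 and -0.012 to 0.14 for LDHA, and FPD minus PD from -0.074 to 0.052 for EPAS1, -0.029 to 0.016 for GAPDH and -0.072 to 0.027 for PGK1. EGLN1 in FPD against Control was lost with all rows tested (adjusted p = 0.0519). PGK1 in FPD against F was lost with all rows tested (0.0862). LDHB was lost in FPD against F after quantile normalization (0.0508), with all rows tested (0.0739) and on the compared arrays alone (0.0505), and in PD against F in the same settings (0.152, 0.0749 and 0.103). In FPD against Control, calls as lower were gained among the upper genes by PGK1 (0.0476), LDHB (0.0480), ADM (0.0477) and MXI1 (0.0282). KDM3A gained a call as higher there (0.0359). MXI1 was also called without Control replicate 3 (0.0351), F replicate 3 (0.0499) or FPD replicate 2 (0.0359). PGK1 was called without F replicate 1 (0.0417) and GPI with a variance trend (0.0491).

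Over all genes, testing all rows called 716 higher and 580 lower in FPD against Control, where the fit reported here called 1080 and 876, and 741 higher and 641 lower in FPD against F, against 1117 and 988. Without F replicate 2, FPD against F called 657 lower. F against Control called 0 higher among the upper genes and with the block and 4 with a variance trend, and 0 to 2 without single arrays. FPD against PD called 0 higher with the mean of rows and with the block, 8 on the compared arrays alone, 19 among the upper genes and 29 with a variance trend, and 0 to 13 without single arrays. FPD against PD called 1 lower after quantile normalization and among the upper genes, 3 with a variance trend, and 0 to 4 without single arrays.

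With 3 arrays per group, the small difference of GAPDH passed the test under no alternative run. Values near the array medians could not be separated from background. Among these were EGLN3, BNIP3, RORA and PDP1, ANKRD37 in FPD and PD cells, and TMEM45A and VLDLR in F and Control cells.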
